A study of Mus musculus with 6 samples.

Results

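The T cell receptor is read out in RNA by a small set of genes: the CD3 subunits Cd3d, Cd3e and Cd3g, the receptor constant regions Trac, Trbc1 and Trbc2, the kinase Lck, the adaptor Lat and the coreceptors Cd4 and Cd8a. These 10 genes, taken by name from the 56496 genes of the deposited table, were followed in mouse bone marrow. The 9 others are called T-restricted here, a name that was not tested in these libraries. They were kept apart from Lat, which platelets and megakaryocytes also carry. RNA-seq was measured in 6 libraries of bone marrow cells from female BALB/c mice, labelled WT, from which a tumour of the mouse mammary carcinoma line 4T1 had been removed. All groups shared the tumour and the surgery. The 3 Onway libraries (Onway 1, Onway 2 and Onway 3) came from mice given Onway by gavage over 2 weeks and carry day 14 in their labels. The 3 Control libraries (Control 4, Control 5 and Control 6) came from mice that were not treated and carry day 0, so the effect of treatment and that of the labelled day cannot be told apart. What Onway contains is not stated in the labels.

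A T cell recognises peptide on MHC molecules through a receptor whose alpha and beta chains do the binding, while the CD3 chains carry the tyrosine motifs that pass the signal on. Lck, brought in by CD4 or CD8, phosphorylates those motifs, ZAP-70 is recruited, and Lat is then phosphorylated and gathers the signalling proteins that start calcium and Ras signalling. In platelets and megakaryocytes, which have no T cell receptor, Lat serves the collagen receptor GPVI and CLEC-2 in a similar chain of kinases and adaptors. Bone marrow holds few T cells, many of them memory cells that have returned to it.

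Values are TPM, a relative transcript abundance. TPM scale each library to the same total and correct for transcript length, so levels of different genes can be set side by side. Differences are Onway minus Control on the log2(TPM + 1) scale, where folds of genes close to 1 TPM come out too small. They were tested with limma over all 14192 genes whose mean reached 1 TPM. A gene was called when its Benjamini-Hochberg adjusted p over all tested genes was under 0.05. TPM keep no read depth, so no counting interval can be given for these low levels. The labels do not say that each library is a separate mouse, so the p-values speak only of the spread among these libraries. Haemoglobin genes took 9.39% to 33.9% of the TPM, highest in Onway 3 and next in Control 4 (26.6%).

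The start sites of Lat and of the CD3 cluster are shown because Lat was the gene that changed, while the 3 neighbouring CD3 genes did not pass the test. Cd3g and Cd3d lie head to head on chromosome 9 with starts 1355 bases apart, and Cd3e lies beyond Cd3d. Each line gives the 250 bases before the RefSeq start (GRCm38.p6), read 5′ to 3′ on the strand of the gene. Capitals mark matches on either strand to GGAAG, the core bound by ETS factors, to TGTGG, the core bound by RUNX factors, and to AGATAA, which is bound by GATA factors.
Lat, chr7:126369569-126369818, minus strand: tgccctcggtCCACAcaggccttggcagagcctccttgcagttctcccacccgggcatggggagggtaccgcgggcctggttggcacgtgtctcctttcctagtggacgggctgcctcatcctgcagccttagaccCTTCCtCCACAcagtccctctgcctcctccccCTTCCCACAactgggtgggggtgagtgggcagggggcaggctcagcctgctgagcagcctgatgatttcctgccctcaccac
Cd3d, chr9:44981536-44981785, plus strand: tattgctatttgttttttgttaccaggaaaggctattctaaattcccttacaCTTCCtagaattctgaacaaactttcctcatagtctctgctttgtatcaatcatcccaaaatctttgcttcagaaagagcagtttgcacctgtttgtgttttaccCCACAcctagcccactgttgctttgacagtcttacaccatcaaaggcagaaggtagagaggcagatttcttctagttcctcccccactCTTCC
Cd3e, chr9:45009612-45009861, minus strand: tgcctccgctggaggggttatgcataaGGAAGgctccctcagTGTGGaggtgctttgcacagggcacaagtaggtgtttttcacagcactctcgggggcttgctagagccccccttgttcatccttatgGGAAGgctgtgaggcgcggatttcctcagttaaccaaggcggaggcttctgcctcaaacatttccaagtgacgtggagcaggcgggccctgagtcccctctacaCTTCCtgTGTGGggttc
Cd3g, chr9:44980432-44980681, minus strand: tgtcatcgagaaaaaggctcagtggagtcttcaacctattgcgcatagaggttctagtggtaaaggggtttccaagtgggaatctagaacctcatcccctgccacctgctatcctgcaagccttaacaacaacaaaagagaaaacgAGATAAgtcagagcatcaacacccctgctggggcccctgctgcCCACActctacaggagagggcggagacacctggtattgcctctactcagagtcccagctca

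The window of Lat held 2 ETS matches and 3 RUNX matches, and 1 ETS match shared letters with 1 RUNX match. Cd3d held 2 ETS matches and 1 RUNX match, and Cd3e 3 and 2. Cd3g held 1 RUNX match and, alone among these 4 windows, a GATA match. Such short words are common: of 32851 RefSeq windows of 250 bases, 64.1% held the ETS core, 49.3% the RUNX core and 9.99% the GATA motif. Promoter entries were found for 6 of the 10 genes, and these matches are a description of letters, not of binding.

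Lat fell in Onway while no T-restricted gene passed the test in either direction. Lat, the linker for activation of T cells, stood at 27.65, 31.3 and 30.32 TPM in the Control libraries (4, 5 and 6 in that order) and at 5.33, 5.82 and 8.28 TPM in the Onway libraries (1, 2 and 3). Every Control library was above every Onway library, and the spread inside each group was small beside the gap. The means were 29.8 ± 1.89 and 6.48 ± 1.58 TPM (SD, n = 3), a 4.60-fold lower level in Onway, and the log2 difference was −2.06 (SE 0.19, limma adjusted p = 0.0014). Of all tested genes 3.22% were called, 2.99% lower and 0.233% higher, and among the 10 genes here Lat was the 1 called. The groups of 18.4% of all tested genes did not overlap, 11.5% with Onway lower and 6.95% with Onway higher. Lat lies on chromosome 7 from 126363824 to 126369570 (GRCm38, minus strand).

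**Figure D1:**
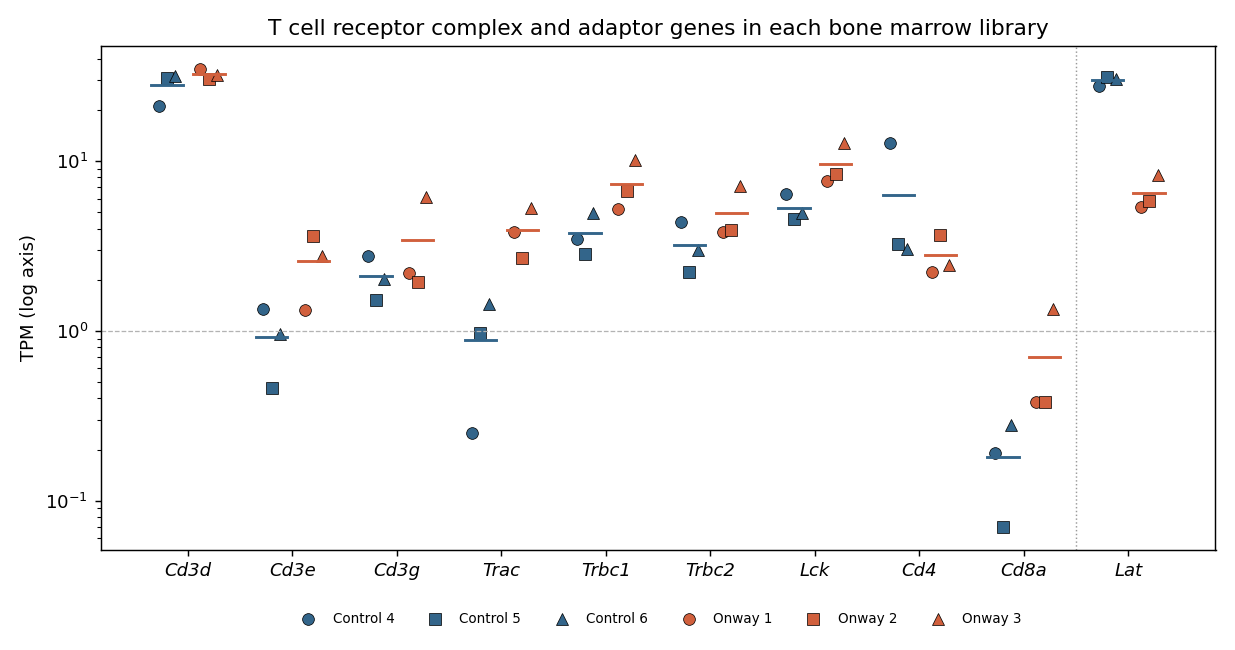
TPM of the 10 genes on a log axis, with 1 symbol per library (blue Control, orange Onway) and a bar at each group mean; the dashed line is 1 TPM and the dotted line sets Lat apart. Lat sits near 30 TPM in the Control libraries and at 5.33 to 8.28 TPM in Onway, whereas Trac, Trbc1, Lck and Cd8a have all their Onway symbols above their Control symbols.

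The fall of Lat was carried by its coding transcript. Lat-201, the main coding model, held 75.5% of the gene's TPM in Control and 81.3% in Onway. It stood at 21.41, 22.11 and 23.87 TPM in the Control libraries and at 4.12, 4.41 and 7.27 TPM in the Onway libraries. A newly assembled model of the gene was at 4.37, 6.02 and 4.88 TPM in the Control libraries and at 0.69, 0.65 and 0.60 TPM in Onway. A second coding model, Lat-206, followed the same order, from 1.19 to 1.63 TPM in Control to between 0 and 0.36 TPM in Onway. The retained-intron model Lat-202 was low in all 6 libraries, at 0.24, 0.48 and 0.25 TPM in Control and 0.17, 0.40 and 0.41 TPM in Onway, so its groups overlapped while those of the 3 larger models did not.

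**Figure D2:**
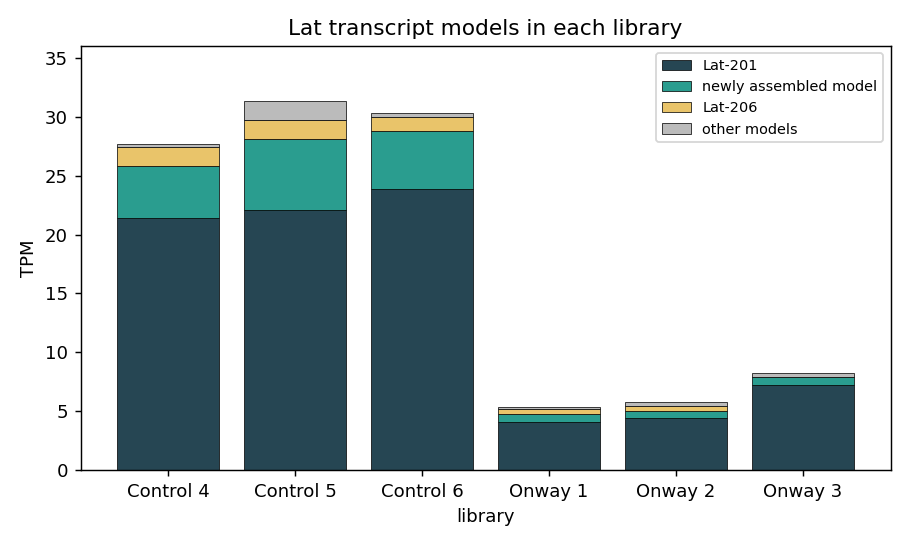
Stacked bars of Lat TPM per library, divided into the coding models Lat-201 and Lat-206, the newly assembled model and the other annotated models. Lat-201 makes up most of every bar, and both it and the newly assembled model are shorter in all 3 Onway libraries.

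Platelet and megakaryocyte markers moved with Lat. All 16 markers on that list were called lower, against 2.99% of all tested genes. Their median log2 difference was −3.27 against 0.028 over all tested genes, and none was listed at 0. Their summed level was 2373 to 2677 TPM in Control and 124 to 212 TPM in Onway. Pf4, the platelet chemokine, stood 15.2-fold lower in Onway (log2 difference −3.90, SE 0.17, limma adjusted p = 0.00040). Rab27b, which works in granule secretion, and Mmrn1, a granule protein, fell by 3.06 and 2.97 on the log2 scale (limma adjusted p = 0.00048 each). Skeletal muscle markers (8 of 8 called lower, 645 to 4162 TPM in Control against 13.3 to 18.3 TPM in Onway) and bone and stroma markers (7 of 8, 653 to 1279 against 34.3 to 54.1 TPM) were also lower. The part of these other cells in the Lat value was not tested.

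Of the proteins that work with Lat behind GPVI and CLEC-2, 16 genes were tested. By limma 3 of these were called lower, against 2.99% of all tested genes, and 0 higher, against 0.233%. The median log2 difference was −0.11. The 3 called genes were Gp6, which encodes GPVI itself, Clec1b, which encodes CLEC-2, and Src, a kinase abundant in platelets. Gp6 and Clec1b are on the platelet marker list as well. Gp6 was at 13.29, 9.78 and 12.23 TPM in the Control libraries and at 0.67, 0.92 and 0.23 TPM in Onway, 19.4-fold lower in the mean (limma adjusted p = 0.00077). Src was at 12.22, 7.92 and 8.97 TPM in the Control libraries and at 0.93, 0.85 and 0.79 TPM in Onway (−2.51, SE 0.21, limma adjusted p = 0.00090). Clec1b went from 88.1 ± 4.94 to 6.00 ± 2.75 TPM (−3.76, SE 0.31, limma adjusted p = 0.00095). For these 3 genes, as for Lat, every Onway library lay below every Control library. That held for 6 of the 16, against 11.5% of all tested genes. The other 13 did not pass, among them Lcp2, the adaptor SLP-76 that binds next to Lat, at 45.37, 62.5 and 58.25 TPM in Control and 70.47, 66.31 and 32.64 TPM in Onway.

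The authors' deposited table also gives a mean for each group, and its column name does not say how many libraries it rests on. Every deposited mean could be a mean of 4 values with 2 decimals. Taken 4 times, it was never under the sum of the group's 3 libraries (tolerance 0.011 TPM). The further value per group is inferred from this and was not seen as a library. In the authors' deposited table the Control mean of Lat was 26.4 TPM and its Onway mean 9.31 TPM. Taken 4 times, these means of the authors' deposited table leave 16.2 TPM for the further Control value and 17.8 TPM for the further Onway value. Those 2 values lie between the groups and do not show the difference. The platelet markers behaved alike, with 1149 and 1355 TPM left in the authors' deposited table for Control and Onway. For the 9 T-restricted genes the authors' deposited table leaves a summed 51.6 TPM in Control and 78.1 TPM in Onway, each within the range of the 3 libraries of its group. For Lck it leaves 7.91 and 11.4 TPM, and that Control value lies above Onway 1 (7.61 TPM). For Cd8a it leaves 0.59 and 0.89 TPM, with the Control value above Onway 1 and Onway 2 (0.38 TPM each). With the values left for Trac (1.99 and 2.92 TPM) and Trbc1 (4.90 and 9.13 TPM) the groups still did not overlap.

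**Figure D3:**
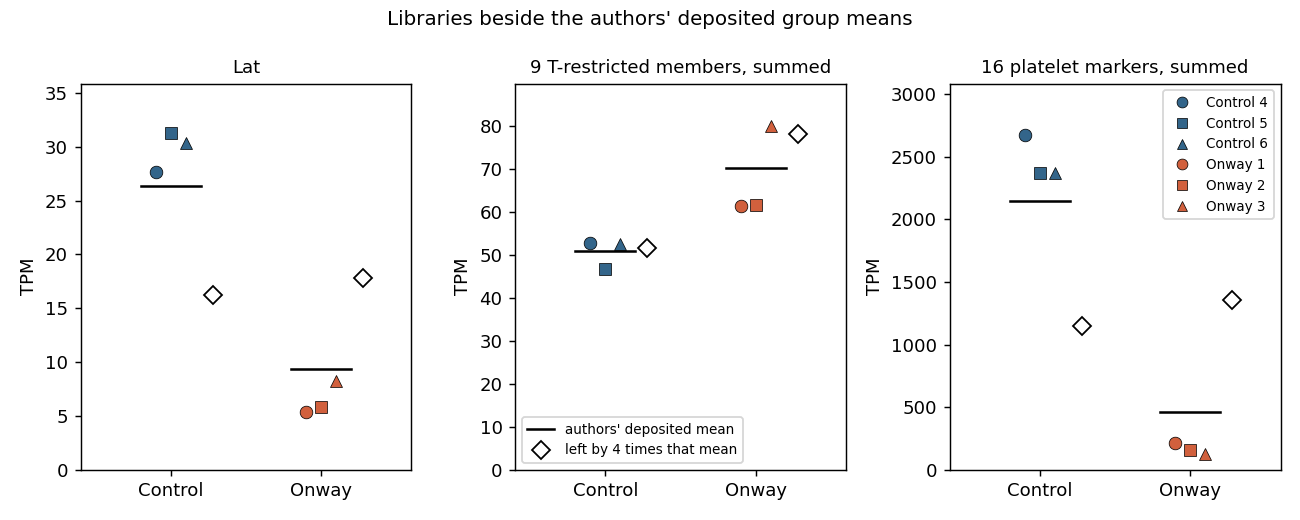
TPM of Lat, of the 9 T-restricted genes summed and of the 16 platelet markers summed; filled symbols are libraries, the line is the authors' deposited group mean and the open diamond is what 4 times that mean leaves beyond the 3 libraries. For Lat the diamonds lie at 16.2 TPM (Control) and 17.8 TPM (Onway), and for the T-restricted sum at 51.6 and 78.1 TPM.

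The receptor constant regions had higher means in Onway, and none passed the test. Trac, the alpha chain constant region (chromosome 14, 54220521 to 54224206), stood at 0.25, 0.97 and 1.43 TPM in the Control libraries and at 3.83, 2.70 and 5.29 TPM in Onway. The groups did not overlap, and the means were 0.883 ± 0.595 and 3.94 ± 1.30 TPM, a 4.46-fold ratio of low levels. Its log2 difference was 1.41 (SE 0.32, limma adjusted p = 0.068), and over the 16 other settings tried the adjusted p ran from 0.051 to 0.16.

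The 2 beta chain constant regions, Trbc1 and Trbc2, are near-identical neighbours on chromosome 6 whose starts lie 8512 bases apart. Over 518 coding bases 23 differed (95.6% identity), and 1 of those lay in the 375 bases of the first exon. The lines below give coding positions 241 to 420 of each, from GENCODE M21 transcripts on GRCm38 (Trbc1-202 within chr6:41538218-41539881 and Trbc2-201 within chr6:41546730-41548352, both plus strand), to show how few letters tell them apart. Capitals mark the 8 positions that differ.
Trbc1: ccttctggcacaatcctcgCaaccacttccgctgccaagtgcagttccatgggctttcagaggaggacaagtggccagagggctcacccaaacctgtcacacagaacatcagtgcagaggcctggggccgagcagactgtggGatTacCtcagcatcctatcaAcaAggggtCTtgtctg
Trbc2: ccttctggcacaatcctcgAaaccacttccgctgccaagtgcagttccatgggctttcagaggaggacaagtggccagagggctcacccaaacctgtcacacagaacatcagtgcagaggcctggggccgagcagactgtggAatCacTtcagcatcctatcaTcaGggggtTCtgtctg

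How reads shared by both copies were divided is not stated in the labels, so their separate values are uncertain. Trbc1 stood at 3.45, 2.85 and 4.97 TPM in the Control libraries and at 5.18, 6.69 and 10.17 TPM in Onway (log2 difference 0.79, SE 0.28, limma adjusted p = 0.26), and its groups did not overlap. Trbc2 stood at 4.37, 2.23 and 2.98 TPM in the Control libraries and at 3.81, 3.90 and 7.11 TPM in Onway (0.49, SE 0.29, limma adjusted p = 0.53), and its groups overlapped. The ratio of Trbc1 to Trbc2 ran from 0.789 to 1.72 over the 6 libraries. Their sum, which does not depend on the division, was 7.82, 5.08 and 7.95 TPM in Control and 8.99, 10.59 and 17.28 TPM in Onway, 1.77-fold higher in the mean (exact permutation test, two-sided, p = 0.1). With 3 libraries against 3 that is the smallest p the test can give. The sum takes in newly assembled models of both genes. The annotated model Trbc2-201 overlapped too, at 3.88, 1.66 and 2.40 TPM in Control and 2.99, 2.71 and 5.33 TPM in Onway.

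Variable segments, which differ from T cell to T cell, did not separate the groups. Of the 165 Trav and Trbv segments, 80 were listed above 0 in some library, 4 were abundant enough to test and 0 were called by limma (1 with an unadjusted p under 0.05). They summed to 23.6, 14.69 and 12.98 TPM in Control and to 19.05, 18.78 and 29.91 TPM in Onway, and the groups overlapped (exact permutation p = 0.4). All joining segments of both chains were listed at 0. The constant genes of the gamma-delta receptor, the alternative receptor of a minor T cell lineage, were not called by limma either: 3 of the 4 in the table were tested, 0 with an unadjusted p under 0.05. Trgc4 was at 1.25, 0.70 and 0.72 TPM in Control and 1.48, 1.55 and 2.23 TPM in Onway, Trgc1 had its 2 highest values in Control 5 and Control 6 (4.50 and 3.76 TPM), and Trdc had nearly equal means of 2.77 ± 0.733 and 2.86 ± 0.930 TPM.

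The 3 CD3 subunits, which assemble with the receptor chains into 1 complex on the cell surface, were measured at very unequal levels. Cd3d, the delta subunit (chromosome 9, 44981786 to 44987339), stood at 21.18, 30.85 and 31.8 TPM in the Control libraries and at 34.85, 30.32 and 32.01 TPM in Onway. The groups overlapped, with Control 4 alone low, and the log2 difference was 0.23 (SE 0.20, limma adjusted p = 0.69). Cd3e, the epsilon subunit, stood at 1.35, 0.46 and 0.96 TPM in the Control libraries and at 1.32, 3.62 and 2.76 TPM in Onway (0.86, SE 0.32, limma adjusted p = 0.29). Cd3g, the gamma subunit, stood at 2.75, 1.52 and 2.02 TPM in the Control libraries and at 2.18, 1.95 and 6.11 TPM in Onway (0.41, SE 0.36, limma adjusted p = 0.70), and Onway 3 alone lay above the Control range. Cd3d exceeded Cd3e by 8.38-fold to 67.1-fold within a library and Cd3g by 5.24-fold to 20.3-fold.

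At the transcript level Cd3d came from its coding model Cd3d-201, at 21.18 to 30.84 TPM in Control and 28.71 to 34.85 TPM in Onway. Cd3e rested in part on a retained-intron model. Cd3e-203 held 2.79 of the 3.62 TPM of Onway 2 and at most 0.20 TPM in any other library. The coding model Cd3e-201 stood at 1.24, 0.46 and 0.76 TPM in the Control libraries and at 1.16, 0.81 and 2.59 TPM in Onway, where Onway 3 alone was above the Control range. Cd3g came from its coding model Cd3g-201 in all libraries. An antisense gene, Gm48719, and a second gene, Gm48720, overlap Cd3e, and both were listed at 0 in every library; whether the libraries kept strand is not stated in the labels.

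Lck, the kinase that starts the signal, had a higher mean in Onway and no overlap between groups, and did not pass the test. It stood at 6.38, 4.57 and 4.96 TPM in the Control libraries and at 7.61, 8.35 and 12.74 TPM in Onway, a 1.80-fold ratio of means (log2 difference 0.72, SE 0.23, limma adjusted p = 0.21). Lck has 2 start sites 15250 bases apart on chromosome 4. The model from the farther start, Lck-202, stood at 3.46, 2.11 and 2.89 TPM in the Control libraries and at 3.67, 5.20 and 7.12 TPM in Onway. The models from the nearer start summed to 1.53, 1.78 and 0.95 TPM in Control and to 1.89, 2.86 and 3.70 TPM in Onway. Both lay wholly higher in Onway, and in each library the farther start had the higher level. Lat exceeded Lck by 4.33-fold to 6.85-fold in the Control libraries, and the ratio of Lat to Lck was 0.650 to 0.700 in the Onway libraries.

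The coreceptors Cd4 and Cd8a were low, and the size of the Cd4 difference rested on 1 library. Cd4, which marks helper T cells and binds MHC class II, stood at 12.69, 3.23 and 3.02 TPM in the Control libraries and at 2.23, 3.66 and 2.44 TPM in Onway. Control 4 was far above the other 5 libraries, and a newly assembled Cd4 model was listed above 0 there (2.03 TPM) and at 0 elsewhere. The log2 difference was −0.72 (SE 0.49, limma adjusted p = 0.60), and −0.15 without Control 4 (adjusted p = 0.85). Cd8a, the alpha chain of the coreceptor of cytotoxic T cells, was at 0.19, 0.07 and 0.28 TPM in the Control libraries and at 0.38, 0.38 and 1.34 TPM in Onway. With a mean of 0.44 TPM it was under the limit of 1 TPM and was not tested, although its groups did not overlap.

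No T-restricted gene passed the test, and most had a positive sign. Of the 8 that were tested limma called 0, 7 had a positive sign against 53.6% of all tested genes, and the median log2 difference was 0.61 against 0.028. Unadjusted p-values under 0.05 were found for 4 of the 8, against 13.4% of all tested genes. Trac and Cd3e are among those 4. Their Control means (0.883 and 0.923 TPM) were under 1 TPM, so they passed the filter only through Onway (3.94 and 2.57 TPM). The filter favours a positive sign for such genes, so their signs and p-values are not support for a lean. In Onway 2 the retained-intron model Cd3e-203 held 2.79 of the 3.62 TPM of Cd3e. Trac, Trbc1 and Lck, 3 of the 8, lay wholly higher in Onway, against 6.95% of all tested genes. These genes can share the same cells, so they are not independent of each other, and in bulk marrow a change in the number of T cells and a change in RNA per T cell cannot be told apart.

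The summed level of the 9 genes was 52.61, 46.75 and 52.42 TPM in Control and 61.39, 61.57 and 79.97 TPM in Onway, 1.34-fold higher in the mean (50.6 ± 3.33 against 67.6 ± 10.7 TPM, exact permutation p = 0.1). Cd3d made up 40.0% to 66.0% of that sum. Without Cd3d the sums were 31.43, 15.9 and 20.62 TPM against 26.54, 31.25 and 47.96 TPM, and the groups overlapped (exact permutation p = 0.3). Without both Cd3d and Cd4 they were 18.74, 12.67 and 17.6 TPM against 24.31, 27.59 and 45.52 TPM, 1.99-fold higher in Onway (exact permutation p = 0.1). Onway 3 had the highest value in each of these sums and also the highest haemoglobin share. Leaving it out lowered the difference of the 9-gene sum from 17.1 to 10.9 TPM. With haemoglobin genes removed and the libraries rescaled, the exact permutation p of the 9-gene sum was 0.3.

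Ordered by mean TPM, the T-restricted genes and Lat fell into 2 tiers. In Control Lat (29.8 TPM) and Cd3d (27.9 TPM) stood above the rest with overlapping ranges, followed by Cd4, Lck, Trbc1, Trbc2, Cd3g, Cd3e, Trac and Cd8a. In Onway Cd3d (32.4 TPM) stood alone, followed by Lck, Trbc1, Lat, Trbc2, Trac, Cd3g, Cd4, Cd3e and Cd8a. Below the top tier each gene overlapped its neighbour in the order, in both groups, except that in Control every Cd3g value (1.52 TPM or more) lay above every Cd3e value (1.35 TPM or less). Lat moved from the top tier in Control into the range of Trbc1 and Trbc2 in Onway.

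Among other genes of receptor signalling the few that passed the test were lower in Onway. Of 35 further genes on that list 34 were in the table and 27 were tested. Limma called 3 of the 27 lower and 0 higher, with a median log2 difference of 0.11. Of all tested genes 2.99% were called lower and 0.233% higher. Prkcq, protein kinase C theta, which acts in T cells and in platelets, stood at 10.93, 9.35 and 10.79 TPM in the Control libraries and at 3.12, 2.90 and 2.32 TPM in Onway (−1.59, SE 0.18, limma adjusted p = 0.0029). Cd226, an adhesion receptor of T cells, NK cells and platelets, stood at 19.58, 16.95 and 16.33 TPM in the Control libraries and at 5.59, 4.46 and 2.41 TPM in Onway (−1.90, SE 0.26, limma adjusted p = 0.0076, and 0.082 with Ensembl transcripts alone). Both had wholly separate groups, as Lat did.

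Sla2, an adaptor that dampens receptor signalling, stood at 4.44, 3.78 and 4.09 TPM in the Control libraries and at 1.52, 1.65 and 1.84 TPM in Onway (−0.93, SE 0.18, limma adjusted p = 0.034). Its call was lost when any 1 of the 6 libraries was left out (adjusted p = 0.070 to 0.16), without both Control 4 and Onway 3 (0.12) and with haemoglobin genes removed (0.081). The 24 others did not pass. Among them were Cd247, the zeta chain that completes the receptor complex, at 2.07 to 2.57 TPM in Control and 1.71 to 3.84 TPM in Onway, and Zap70, the kinase between Lck and Lat, at 1.09 ± 0.417 and 1.97 ± 0.904 TPM. The further values that the authors' deposited table leaves were 5.29 and 7.26 TPM for Prkcq in Control and Onway and 10.3 and 12.9 TPM for Cd226.

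Genes of T cell identity and homing had 0 calls by limma in 16 tested, of 26 on the list, against 3.22% of all tested genes. An unadjusted p under 0.05 was found for 6, against 13.4% of all tested genes. All 16 had a positive sign, against 53.6%, with a median log2 difference of 0.60 against 0.028. Limma gave its smallest p-values on the list to Ets1, Satb1 and Ccl5. Ets1, a transcription factor of lymphocytes, was at 29.37, 30.8 and 31.34 TPM in Control and 38.88, 53.15 and 48.01 TPM in Onway (0.59, SE 0.17, limma adjusted p = 0.16). Satb1, a chromatin organiser of thymocytes, was at 13.5 ± 2.30 and 21.6 ± 2.72 TPM (0.64, SE 0.18, limma adjusted p = 0.16). Ccl5, a chemokine of memory T cells and NK cells that platelets store as well, was at 15.37, 5.81 and 13.58 TPM in Control and 21.95, 26.11 and 42.75 TPM in Onway (1.36, SE 0.39, limma adjusted p = 0.18). For these 3 genes the groups did not overlap, with Onway higher. That held for 4 of the 16 tested, against 6.95% of all tested genes.

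**Figure D4:**
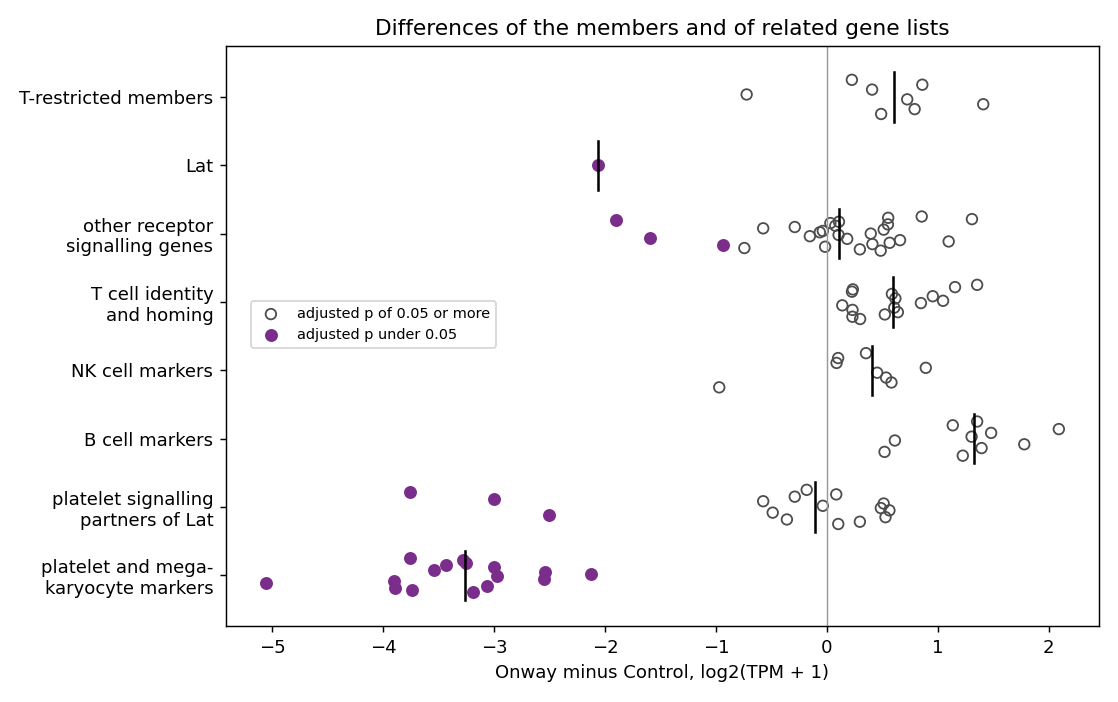
Log2 differences (Onway minus Control) of tested genes, 1 circle per gene, filled where the limma adjusted p was under 0.05, with a vertical bar at each list's median. The T-restricted genes centre at 0.61 with no filled circle, Lat lies at −2.06, and the platelet markers centre at −3.27 with all 16 filled.

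Markers of other lymphoid and myeloid cells that share some of these genes were read beside them. Over all tested genes 3.22% were called, 53.6% had a positive sign and 13.4% an unadjusted p under 0.05. The 8 tested of 10 NK cell markers had no call by limma, 7 had a positive sign and 3 an unadjusted p under 0.05, and they summed to 126 to 210 TPM in Control and 93.0 to 116 TPM in Onway. That sum was led by Nkg7, at 139 ± 43.5 and 69.5 ± 15.5 TPM (limma adjusted p = 0.15), while Klrd1 was at 2.87 ± 0.136 and 6.49 ± 2.61 TPM and Ncr1, a defining NK receptor, at 3.10 ± 0.179 and 5.20 ± 0.981 TPM (limma adjusted p = 0.19 and 0.23). B cell markers, 10 of 10 tested, had no call by limma, 7 unadjusted p-values under 0.05 and 10 positive signs, with a median log2 difference of 1.33. They summed to 214 to 355 TPM in Control and 305 to 935 TPM in Onway, high in Onway 2 and Onway 3. Pax5, the transcription factor that fixes B cell identity, was at 9.37 ± 1.44 and 28.8 ± 13.7 TPM (limma adjusted p = 0.17), Vpreb3 at 63.9 ± 13.1 and 164 ± 76.7 TPM (0.26) and Cd22 at 3.70 ± 2.46 and 21.4 ± 13.9 TPM (0.28). Without Onway 1 these 3 B cell genes passed (limma adjusted p = 0.0068, 0.015 and 0.032).

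Dendritic cells can express Cd4, and their markers had 1 call in 12 tested, against 3.22% of all tested genes. A positive sign was found for 10 and a negative sign for 2, against 53.6% positive over all tested genes. Of the 12, 7 had an unadjusted p under 0.05, against 13.4%, and the median log2 difference was 0.52 against 0.028. Cd209a was higher, at 1.35 ± 0.260 and 4.68 ± 1.35 TPM (log2 difference 1.26, SE 0.23, limma adjusted p = 0.027), and lost its call without Control 5, Control 6, Onway 1, Onway 2 or Onway 3 (0.060 to 0.099), without both Control 4 and Onway 3 (0.092), with no filter (0.054), with haemoglobin genes removed (0.088) and with median-centred libraries (0.070). Cox6a2, a cytochrome oxidase subunit gene that muscle expresses too, stood at 44.7 ± 30.1 and 4.61 ± 0.881 TPM (limma adjusted p = 0.074), and passed without Control 5 (0.00093) and with limma without trend or robust moderation (0.044). Clec9a, of conventional dendritic cells, was at 5.58 ± 0.774 and 2.38 ± 0.866 TPM (limma adjusted p = 0.080). Cox6a2 and Clec9a were the 2 tested dendritic markers with a negative sign. Basophil and mast cell markers had 0 calls by limma in 8 tested (0 with an unadjusted p under 0.05) and summed to 220 to 838 TPM in Control and 354 to 825 TPM in Onway. Innate lymphoid markers had 0 calls in 2 tested and thymocyte genes 0 in 6, each with 1 unadjusted p under 0.05. Ptcra, the pre-receptor alpha chain that marks developing thymocytes, was at 0 to 0.12 TPM. The part of these other cells in the T-restricted values was not tested.

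The genes whose pattern over the 6 libraries was most like that of Lat were not T cell genes, and none was on the platelet marker list. By Pearson correlation of log2(TPM + 1) among 9522 genes whose mean reached 5 TPM, they were Ltbp1 (0.995), Rarres2 (0.995), Car3 (0.994), Snhg20 (0.993) and Bgn (0.992). All 5 were called lower in Onway. Ltbp1 binds latent TGF-beta in the matrix and Bgn is a matrix proteoglycan. All 5 share with Lat a step between the groups, so the correlations are given as a description. The 3 CD3 genes did not share 1 pattern. Cd3d correlated with Cd3e at 0.04 and with Cd3g at −0.037, and Cd3e with Cd3g at 0.512. The mean pattern of the 3 CD3 genes, which does not stand for each gene, was closest to H2-Aa (0.994), Traf3ip2 (0.977), Cd74 (0.974), Myl4 (0.974) and H2-Ab1 (0.969). Of these, H2-Aa, H2-Ab1 and Cd74 belong to antigen presentation by MHC class II, and H2-Aa was at 66.0 ± 14.3 and 169 ± 97.5 TPM (limma adjusted p = 0.28). None of these 5 was called.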

How the data were processed

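Per the labels' protocols, RNA was purified on columns and sequenced as SMARTer mRNA libraries. The authors deposited 1 table of TPM for 158850 transcripts, 16416 of them newly assembled, with group means and a transcript length column. Builds named in the submitters' processing notes are GRCm38 and mm10. The aligner and quantifier are not given in the sources used. The Onway columns carry another prefix and were matched by number: 4 times the deposited Onway mean was never under the sum of the 3 matched libraries, whereas 4 times the Control mean was so for 30461 transcripts (tolerance 0.011 TPM).

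Transcript TPM were summed by gene identifier, newly assembled models included. Genes whose mean reached 1 TPM were tested as log2(TPM + 1) with limma 3.58.1 in R 4.3.3, with trend and robust moderation, no covariate and Benjamini-Hochberg adjustment over 14192 genes. The procedure was tested on simulated data. Sums were compared by exact permutation over the 20 assignments of libraries (two-sided). Gene coordinates are from GENCODE M21. Of the member transcripts 43 were in the table, 6 of them newly assembled, and all with Ensembl identifiers matched the annotation.

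The 10 genes, the lists and the alternatives were chosen with earlier results of these data known. Named are all 10 genes, in the described lists the 3 tested genes with the smallest p and every called gene (of the wholly lower platelet, muscle and bone lists at most 3), and the 5 genes most like Lat and most like the CD3 mean. Cd247, Zap70, Lcp2 and Ptcra were added after their values were seen, for their roles.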

Additional observations from a re-analysis of the deposited data

How the results depend on the processing

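Lat was called lower and was the 1 called gene of the 10 under all 16 alternatives, which were another pseudocount (0.1 or 0.5 TPM), no filter or a filter at 0.5 TPM, haemoglobin genes removed, median-centred libraries, Ensembl transcripts alone, limma without trend or robust moderation, each library left out, both Control 4 and Onway 3 left out, and Trbc1 and Trbc2 merged. Its log2 difference ran from −2.28 to −1.93 and its adjusted p from 0.0013 to 0.014. All 16 drew only on the named libraries. None took in the further value inferred for each group from the authors' deposited means. For Lat those inferred values, 16.2 TPM (Control) against 17.8 TPM (Onway), do not repeat the fall. Nor do those for the summed platelet markers, 1149 TPM (Control) against 1355 TPM (Onway). Without Control 4 and Onway 3, which stand apart by haemoglobin share, the log2 difference of Lat was −2.28 (adjusted p = 0.0072). Over all tested genes 457 were called, 304 without both these libraries (207 lower and 97 higher), and 262 to 488 with 1 library left out. The fewest came without Onway 2. Calls in the higher direction were 7.22% of all calls, but 31.9% without both, 21.5% without Control 4, 19.9% without Onway 1 and 22.1% without Onway 3. Without Onway 3 the median over all genes was 0.11, and without both libraries 0.14, so upward leans are read against that shift. The summed T-restricted difference stayed positive in all 12 alternatives (10.9 to 23.7 TPM, against 17.1 TPM). Its exact permutation p was 0.3 with haemoglobin genes removed, without Control 5 and without Cd3d. Without both Control 4 and Onway 3 it was 0.333, the smallest the test can give with so few libraries. In the remaining alternatives it was 0.1. The merging of Trbc1 and Trbc2 and the sums without Cd3d or Cd4 were added after seeing the data. Trdc, with a log2 difference of 0.02, turned to −0.001 with median-centred libraries and ran from −0.11 to 0.24 with 1 library left out. It was −0.08 without Control 4, −0.04 without Control 6, −0.11 without Onway 1 and −0.06 without Onway 2. Nkg7 passed with haemoglobin genes removed (adjusted p = 0.043) and Clec9a with median-centred libraries (0.035). The cause of these shifts was not tested. No paired analysis was possible because the groups share no replicate number. TPM keep no depth, so how far depth limits the genes near 1 TPM, such as Cd3e, Trac and Cd8a, is unknown.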
